A study of Mus musculus with 24 samples.

Results

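The 8 genes described here, Eomes, Tbx21, Cdhr1, Doc2g, Nmb, Dlx1, Dlx2 and Sp8, are genes of the nerve cells of the olfactory bulb, the first relay for smell at the front of the brain. They were chosen by name, with earlier results of these data known, and found among the 55469 genes of the brain table through their Ensembl identifiers. All 8 were matched and passed the filter on low values (a mean of at least 10) that left 19228 genes for testing. Tbx21, with a mean of 4.21 over 10 brains, passed only through the high values of 2 brains, and the other 7 passed without those brains too. RNA was sequenced from the brains of 12 mice on a C57BL/6N background kept on normal chow. Of these, 3 were wild-type (WT), 3 tRNA-Phe-1-1-/-, 3 tRNA-Phe-2-1-/- and 3 tRNA-Phe-3-1-/-. The knockouts were each homozygous for the loss of the named gene. The deleted genes each encode a transfer RNA for phenylalanine and were removed by CRISPR-Cas9 editing of the germline, so that every cell of a mutant mouse lacked the gene. The account of housing describes male mice, while the reporting summary speaks of both sexes and gives an age of 10 weeks. Neither names the RNA samples. The comparison asked whether the loss of any of these tRNA genes was accompanied by a different level of the bulb genes, and how far single brains of the same genotype differed from each other.

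In the bulb, the axons of olfactory sensory neurons from the nose end in round structures called glomeruli, where they contact mitral and tufted cells, the excitatory neurons that carry the signal to the cortex. Inhibitory interneurons, the granule and periglomerular cells, shape that signal, and new ones reach the bulb throughout life as neuroblasts that migrate from the wall of the lateral ventricle. Eomes (Tbr2) and Tbx21 (T-bet) are T-box transcription factors of mitral and tufted cells. Cdhr1 is a cadherin-related membrane protein of these cells, Doc2g belongs to a family of proteins with C2 domains, and Nmb encodes the neuropeptide neuromedin B. Dlx1 and Dlx2 are homeobox transcription factors of inhibitory neurons and their precursors across the forebrain, and Sp8 is a zinc finger transcription factor of bulb interneurons.

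Dlx1 and Dlx2 were neighbours on chromosome 2 and faced each other on opposite strands with 9426 bases between them, and the other 6 genes lay on 6 other chromosomes (7, 9, 11, 12, 14 and 19). The sequences just before the start of 4 genes of mitral and tufted cells are shown because these genes were high in the same brains although they are not linked. They are the 250 bases upstream of the RefSeq start (GRCm38.p6), written 5′ to 3′ on the strand of the gene. The window of Eomes was chr9:118477939-118478188 (+ strand), that of Tbx21 chr11:97115332-97115581 (- strand), that of Cdhr1 chr14:37098348-37098597 (- strand) and that of Doc2g chr19:4003135-4003384 (+ strand). Capitals mark the letters TAATTG, which homeodomain proteins can bind, and GGGCGG, the GC box of Sp-family proteins, each searched on both strands.
Eomes: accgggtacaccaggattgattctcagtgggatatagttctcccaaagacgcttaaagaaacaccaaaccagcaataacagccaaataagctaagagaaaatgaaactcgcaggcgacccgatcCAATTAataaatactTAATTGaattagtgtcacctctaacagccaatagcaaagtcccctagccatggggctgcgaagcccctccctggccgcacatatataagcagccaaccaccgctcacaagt
Tbx21: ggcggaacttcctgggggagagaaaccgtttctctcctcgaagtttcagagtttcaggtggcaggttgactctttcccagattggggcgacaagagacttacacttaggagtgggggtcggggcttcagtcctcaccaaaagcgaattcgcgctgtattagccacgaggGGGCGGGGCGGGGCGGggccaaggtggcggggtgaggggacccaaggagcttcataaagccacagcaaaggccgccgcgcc
Cdhr1: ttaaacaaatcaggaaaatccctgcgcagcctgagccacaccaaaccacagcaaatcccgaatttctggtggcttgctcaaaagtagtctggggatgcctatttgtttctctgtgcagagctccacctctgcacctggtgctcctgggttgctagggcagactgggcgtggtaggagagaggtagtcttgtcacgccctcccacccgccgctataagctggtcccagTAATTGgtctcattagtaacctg
Doc2g: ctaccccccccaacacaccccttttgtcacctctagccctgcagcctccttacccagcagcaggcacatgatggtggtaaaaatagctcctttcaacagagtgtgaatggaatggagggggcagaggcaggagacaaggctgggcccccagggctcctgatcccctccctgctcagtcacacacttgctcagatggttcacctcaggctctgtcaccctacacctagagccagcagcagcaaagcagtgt

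Eomes held TAATTG 2 times, once on each strand, and Cdhr1 held it 1 time, while 7.17% of 32851 mouse promoter windows of the same length held it at least once. The GC box stood 3 times in the window of Tbx21, in overlapping copies, and it was also found in windows of Nmb, Dlx2 and Sp8, against 32.7% of all windows. The T-box half-site GGTGTGA was in none of the 10 windows of the 8 genes (Sp8 has 3 RefSeq starts) and in 3.33% of all windows. The upstream windows thus held no motif, of the 3 searched, that all 8 genes shared.

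Values are normalised counts, that is, reads estimated for a gene and divided by a size factor for each brain, and each brain is named by its genotype and replicate letter. The brains held 30365760 to 46225360 reads, recovered from the steps in the values. The labels describe small pieces of tissue whereas the methods describe total brain, so whether each sample held the olfactory bulb, and how much of it, was not given. In such bulk samples, fewer cells of a type and less RNA per cell cannot be told apart. Other regional genes also differed between brains of the same genotype: the summed level of 7 striatal genes ran from 3270 in tRNA-Phe-1-1-/- A to 35321 in tRNA-Phe-2-1-/- B, that of 6 hypothalamic genes from 38.0 to 8659 in tRNA-Phe-3-1-/- C, and that of 4 choroid plexus genes from 121 to 51750 in tRNA-Phe-2-1-/- C. Genes found throughout the brain varied as well, with Snap25 (a synaptic protein) at 32419 to 67238 and Mbp (a myelin protein) at 17998 to 64196, each lowest in a different brain.

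All 8 genes had their highest values in the same pair of brains, tRNA-Phe-1-1-/- A and tRNA-Phe-3-1-/- B, which carried different deletions. Of the 19228 genes tested, 457 (2.38%) had their highest values in these brains. Of the 10 other brains, none reached the lower of these values for any of the 8 genes. The 8 genes were chosen with earlier results of these data known, and the pair was named from their own values. The 8 genes set beside the 2.38% are therefore no independent observation. This is a description of single brains, seen in the values and not tested.

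Eomes showed the widest range in proportion to its usual level. Its normalised counts were 5.99, 5.28 and 5.64 in WT A, B and C, 355, 5.20 and 14.0 in tRNA-Phe-1-1-/-, 0, 3.35 and 2.22 in tRNA-Phe-2-1-/-, and 23.7, 404 and 56.3 in tRNA-Phe-3-1-/-. The highest value was 69.5 times the median of the 12 brains, and the second highest was 6.31 times the third, which was that of tRNA-Phe-3-1-/- C. All 3 tRNA-Phe-3-1-/- brains lay above all WT brains, and all 3 tRNA-Phe-2-1-/- brains lay below them, but the levels in WT and tRNA-Phe-2-1-/- rested on 0 to 7 reads per brain.

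Tbx21 marks mitral and tufted cells within the brain. It was measured at 3.42, 1.06 and 0 in WT, at 181, 6.23 and 6.01 in tRNA-Phe-1-1-/-, at 3.08, 3.35 and 0.738 in tRNA-Phe-2-1-/-, and at 17.2, 106 and 0.987 in tRNA-Phe-3-1-/-. Outside the pair of high brains the gene never exceeded 16 reads, and tRNA-Phe-3-1-/- C, next to the pair in Eomes, held only 1 read of Tbx21. The 3 tRNA-Phe-1-1-/- brains did not overlap with WT. Eomes and Tbx21 are also genes of T and natural killer lymphocytes, and the summed level of 4 markers of those cells (Cd3e, Nkg7, Ncr1 and Ifng) was 0 to 5.20 over the 12 brains, 4.58 in tRNA-Phe-1-1-/- A and 1.75 in tRNA-Phe-3-1-/- B.

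Cdhr1 was well above the counting limit in every brain. Its values were 116, 124 and 63.2 in WT, 1075, 262 and 228 in tRNA-Phe-1-1-/-, 208, 386 and 61.3 in tRNA-Phe-2-1-/-, and 423, 1422 and 97.8 in tRNA-Phe-3-1-/-. The tRNA-Phe-1-1-/- brains lay above WT without overlap, the other knockouts overlapped with WT, and the step from the third to the second highest brain was 2.54-fold.

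Doc2g separated the pair of high brains from the rest most sharply. Its values were 74.4, 78.2 and 71.1 in WT and 60.5, 71.4 and 75.3 in tRNA-Phe-2-1-/-, whereas they were 1231, 128 and 115 in tRNA-Phe-1-1-/- and 134, 1275 and 130 in tRNA-Phe-3-1-/-. The second highest brain was 9.21 times the third. All brains of tRNA-Phe-1-1-/- and of tRNA-Phe-3-1-/- lay above all brains of WT and tRNA-Phe-2-1-/-, also those outside the pair. How many of all genes were split in this way was not counted, and the split was not tested.

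Nmb varied least in fold among the genes of mitral and tufted cells. It stood at 54.7, 25.4 and 36.1 in WT, at 171, 33.3 and 57.1 in tRNA-Phe-1-1-/-, at 53.3, 45.8 and 60.6 in tRNA-Phe-2-1-/-, and at 59.3, 217 and 20.7 in tRNA-Phe-3-1-/-. Its lowest brain, tRNA-Phe-3-1-/- C, had the same genotype as its highest, and no knockout was clear of WT.

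**Figure D1:**
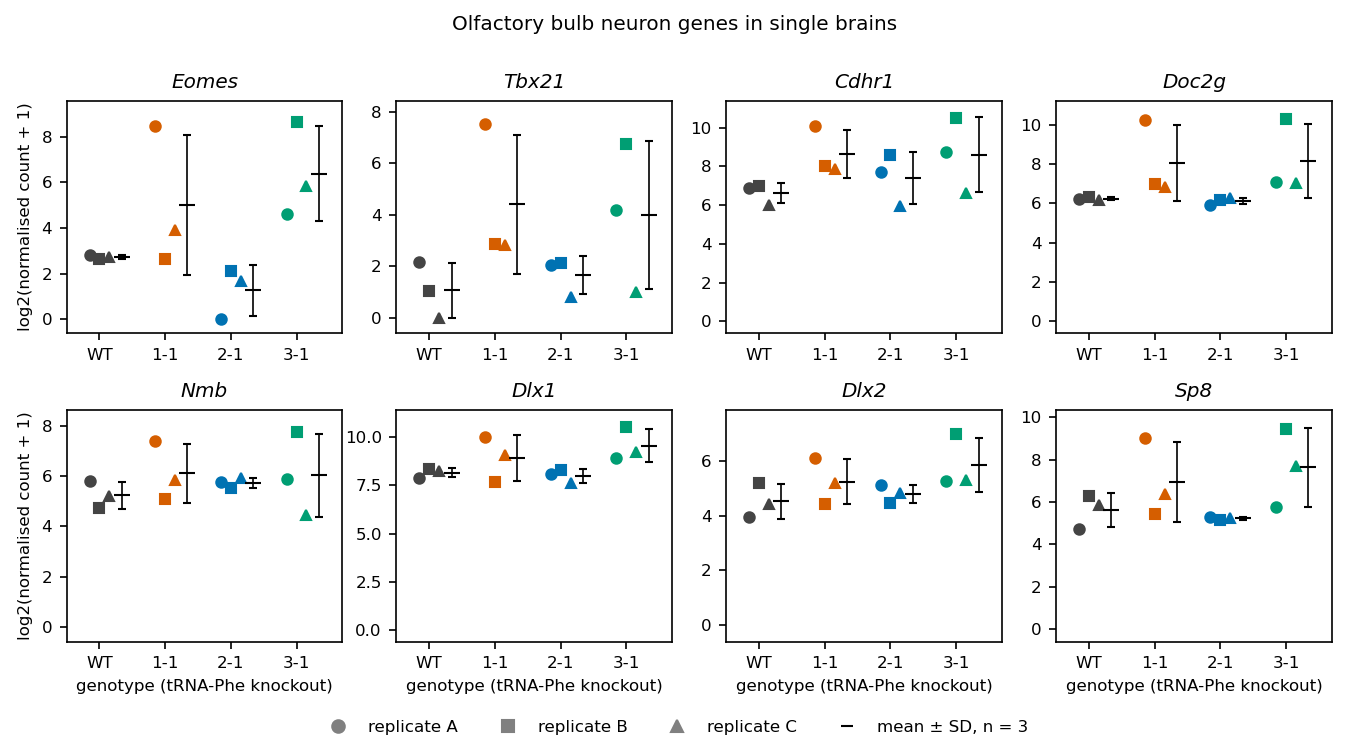
Level of each gene in each brain as log2(normalised count + 1), by genotype, with the replicate letter as the symbol and the mean ± SD of 3 brains beside the points; each panel has its own vertical axis. In all 8 panels the highest points are replicate A of tRNA-Phe-1-1-/- and replicate B of tRNA-Phe-3-1-/-, for example 355 and 404 normalised counts of Eomes.

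Among the interneuron genes, Dlx1 had values of 236, 327 and 299 in WT, 1037, 200 and 544 in tRNA-Phe-1-1-/-, 266, 311 and 193 in tRNA-Phe-2-1-/-, and 477, 1471 and 597 in tRNA-Phe-3-1-/-. Its neighbour Dlx2 had values of 14.5, 35.9 and 20.3 in WT, 67.6, 20.8 and 36.1 in tRNA-Phe-1-1-/-, 33.9, 21.2 and 27.3 in tRNA-Phe-2-1-/-, and 37.7, 126 and 38.5 in tRNA-Phe-3-1-/-. For both Dlx genes the 3 tRNA-Phe-3-1-/- brains lay above all WT brains, and the step from the third to the second highest brain (1.74-fold for Dlx1 and 1.76-fold for Dlx2) was the smallest among the 8 genes. Sp8 had values of 25.7, 76.1 and 57.6 in WT, 529, 41.6 and 82.2 in tRNA-Phe-1-1-/-, 38.0, 34.6 and 36.9 in tRNA-Phe-2-1-/-, and 52.8, 710 and 204 in tRNA-Phe-3-1-/-. The pair of high brains was 2.59-fold clear of the next, and in Sp8 the 3 tRNA-Phe-2-1-/- brains lay closest together.

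Levels can be compared between the genes only per length of their exons. As normalised counts per kilobase, the median over the 12 brains was 67.7 for Nmb, 59.1 for Dlx1, 44.3 for Cdhr1, 21.8 for Doc2g, 12.2 for Dlx2, 10.6 for Sp8, 1.40 for Eomes and 1.36 for Tbx21, and the ranges of neighbours in this order overlapped. In their highest brains Cdhr1 reached 288 per kilobase, Doc2g 287, Dlx1 273 and Nmb 272, while Eomes reached 97.2 and Tbx21 72.7. The 2 T-box factors were thus covered by few reads in most brains but not in the pair of high ones.

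The means by genotype followed the single brains and had errors to match. Eomes had a mean of 5.64 ± 0.352 (SD, n = 3) in WT, 125 ± 200 in tRNA-Phe-1-1-/-, 1.85 ± 1.70 in tRNA-Phe-2-1-/- and 161 ± 211 in tRNA-Phe-3-1-/-. Doc2g had 74.6 ± 3.55 in WT, 491 ± 640 in tRNA-Phe-1-1-/-, 69.1 ± 7.67 in tRNA-Phe-2-1-/- and 513 ± 660 in tRNA-Phe-3-1-/-. In both knockouts that held a high brain, the SD of these genes exceeded the mean.

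No gene of the 8 passed the test for a difference from WT in any knockout (limma on log2(normalised count + 1), adjusted p over all 19228 genes, threshold 0.05). The share of all genes called was 1.05% in tRNA-Phe-1-1-/-, 0.0% in tRNA-Phe-2-1-/- and 0.0% in tRNA-Phe-3-1-/-. At an unadjusted p under 0.05, 1 of the 8 would have been called in tRNA-Phe-1-1-/- (Tbx21), 0 in tRNA-Phe-2-1-/- and 3 in tRNA-Phe-3-1-/- (Eomes, Dlx1 and Dlx2), when 15.9%, 5.57% and 12.3% of all genes would have been. Tbx21 passed the filter only through its values in the high brains, so its calls, here and with DESeq2, rest on those same values. In the same comparisons edgeR on recovered reads called 0 in each, whereas DESeq2 called Tbx21 in tRNA-Phe-1-1-/- and Eomes in tRNA-Phe-3-1-/-. Of the 19228 genes, edgeR called 8, 0 and 0 in the 3 comparisons and DESeq2 called 402, 18 and 382. Both used 11 brains, without tRNA-Phe-1-1-/- C, which was not one of the high brains. For groups of 3 brains, the smallest p that an exact permutation test could reach for any gene is 0.1.

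In tRNA-Phe-1-1-/- against WT, the estimated log2 fold change was above 0 for 8 of 8 genes, with a median of 1.56 against -0.00059 over all genes tested. It was 3.33 ± 1.48 (SE) for Tbx21 (limma adjusted p = 0.299), 2.28 ± 1.36 for Eomes, 2.04 ± 0.94 for Cdhr1 and 1.81 ± 0.94 for Doc2g, and it was 0.73 to 1.32 for the other 4 genes. The 95% confidence interval of Tbx21 ran from 0.083 to 6.58, and that of every other gene included 0, but Tbx21 was tested only because of its values in the high brains and rested on 0 to 4 reads in WT. Over other pseudocounts, normalisations and tests, Tbx21 ranged from 2.17 to 5.92, Eomes from 1.95 to 5.00, Doc2g from 1.76 to 3.19 and Sp8 from 1.27 to 2.43. DESeq2 gave each of these highest values. It was run on 11 brains, without tRNA-Phe-1-1-/- C. In limma with any single brain left out, the highest values were 4.12 for Tbx21, 3.46 for Eomes, 2.40 for Doc2g and 2.09 for Sp8. The parts of the count model and of the missing brain were not tested. In tRNA-Phe-3-1-/- the estimates were again above 0 for 8 of 8 genes, from 0.80 for Nmb to 3.65 ± 1.36 for Eomes (limma adjusted p = 0.319), with Dlx1 at 1.39 ± 0.53 (limma adjusted p = 0.328) and Dlx2 at 1.33 ± 0.54 (limma adjusted p = 0.347). The median was 1.95, against 0.0018 over all genes. Over the same alternatives Eomes ranged from 3.07 to 4.84, Tbx21 from 1.95 to 4.75 and Nmb from 0.73 to 1.36. These comparisons share the WT brains, and the 8 genes were high in the same brains, so the common sign is not 8 separate observations.

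In tRNA-Phe-2-1-/-, which held no high brain, 4 genes were estimated above WT and 4 below, from -1.46 ± 1.36 for Eomes to 0.81 ± 0.94 for Cdhr1, and the limma adjusted p ranged from 0.958 to 0.996. The interval of Eomes ran from -4.45 to 1.53 and that of Doc2g from -2.17 to 1.95, so differences of several-fold in either direction were not detectable with this spread.

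Groups that did not overlap were counted as well. In tRNA-Phe-1-1-/- against WT, 3 of the 8 genes did not overlap (Cdhr1, Tbx21 and Doc2g), when 25.2% of all genes tested did not. In tRNA-Phe-2-1-/- it was 1 of 8 (Eomes, lower) with 11.4% of all genes, and in tRNA-Phe-3-1-/- it was 4 of 8 (Eomes, Dlx1, Dlx2 and Doc2g) with 16.4%.

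Between the knockouts, too, no gene of the 8 passed. When tRNA-Phe-1-1-/- was set against tRNA-Phe-2-1-/-, where 0.53% of all genes were called, the largest estimate was 3.74 ± 1.36 for Eomes (limma adjusted p = 0.253), the only gene of the 8 with an unadjusted p under 0.05 (13.7% of all genes). For tRNA-Phe-2-1-/- against tRNA-Phe-3-1-/-, where 0.0% of all genes were called, Eomes was estimated at -5.11 ± 1.36 (limma adjusted p = 0.328, unadjusted p = 0.0031), with an interval of -8.10 to -2.12, and Dlx1 and Sp8 were the other genes with an unadjusted p under 0.05 (9.93% of all genes). When tRNA-Phe-1-1-/- was set against tRNA-Phe-3-1-/-, each of which held a high brain, 2.11% of all genes were called, and the estimates of the 8 genes lay between -1.37 and 0.42, with an unadjusted p under 0.05 for 0 of them (19.5% of all genes). The F-test for any difference among the 4 genotypes called 122 of all genes (0.634%) and 0 of the 8, of which Eomes (limma adjusted p = 0.181) and Dlx1 (limma adjusted p = 0.277) had an unadjusted p under 0.05 (17.6% of all genes). DESeq2 called Eomes against tRNA-Phe-2-1-/- in both other knockouts and Tbx21 in tRNA-Phe-1-1-/- against tRNA-Phe-2-1-/-, and edgeR called none of the 8 between knockouts. Over all genes DESeq2 called 319 in tRNA-Phe-1-1-/- against tRNA-Phe-2-1-/- and 142 in tRNA-Phe-2-1-/- against tRNA-Phe-3-1-/-, where edgeR called 18 and 1.

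The same fits without tRNA-Phe-1-1-/- A and tRNA-Phe-3-1-/- B, chosen after seeing the data, again called 0 of the 8 genes in every comparison. Of the 19228 genes, they called 194, 0 and 140 against WT in the knockouts of tRNA-Phe-1-1, of tRNA-Phe-2-1 and of tRNA-Phe-3-1. The brains were left out for their values of these same genes, so the estimates and p-values below describe the remaining brains and test nothing further. In tRNA-Phe-1-1-/- the median estimate against WT was then 0.42, and 8 of 8 genes stayed above 0, with 0.54 ± 0.71 for Eomes, 1.77 ± 1.00 for Tbx21 and 1.33 ± 0.77 for Cdhr1. In tRNA-Phe-3-1-/- the median was 0.98 and 7 of 8 genes were above 0, with Eomes at 2.50 ± 0.71 (limma adjusted p = 0.125), Dlx1 at 0.91 ± 0.38 and Nmb at -0.067 ± 0.47. Doc2g, the C2-domain gene whose other brains lay close together, stood at 0.70 ± 0.16 in tRNA-Phe-1-1-/- (limma adjusted p = 0.082) and at 0.82 ± 0.16 in tRNA-Phe-3-1-/- (limma adjusted p = 0.062). These knockouts then had 2 brains each.

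**Figure D2:**
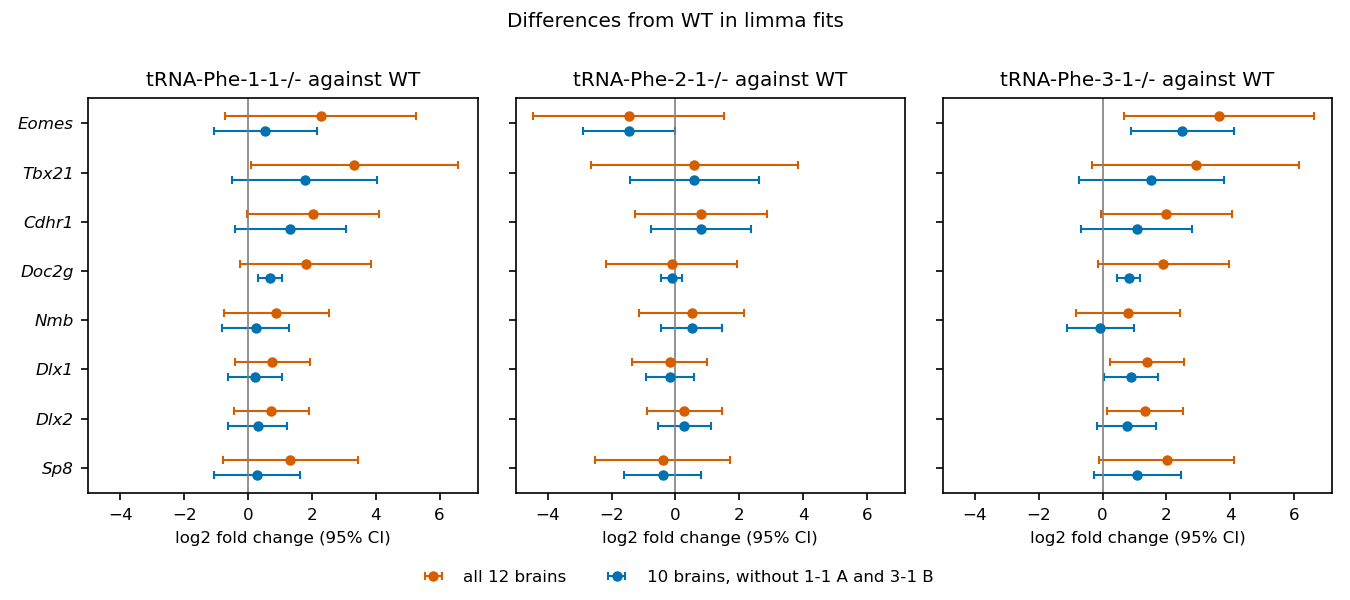
Estimated log2 fold change of each gene against WT in each knockout, with its 95% confidence interval, from limma on all 12 brains (orange) and on 10 brains without tRNA-Phe-1-1-/- A and tRNA-Phe-3-1-/- B (blue). In tRNA-Phe-2-1-/- both fits give the same estimates with narrower intervals in the second, and in the other knockouts the estimates of Eomes move from 2.28 to 0.54 and from 3.65 to 2.50.

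The spread between brains of the same genotype, pooled over the 4 genotypes as the SD of log2 values, was 2.08 for Tbx21, 1.94 for Eomes, 1.38 for Sp8, 1.35 for both Cdhr1 and Doc2g, 1.06 for Nmb, 0.77 for Dlx1 and 0.73 for Dlx2. The median over all 19228 genes was 0.213. Each of the 8 genes had a larger SD than at least 93.3% of genes, and Tbx21 than 99.3%. A wide spread was not particular to bulb genes. The SD was 4.24 for Ttr of the choroid plexus, 3.35 for Pmch of the hypothalamus and 1.91 for Drd2 of the striatum. Other regional genes spread less, such as Rorb of the cortex at 0.114. The counting of reads alone would give an SD of 0.50 for Tbx21, 0.43 for Eomes and 0.073 to 0.24 for the others. This takes each brain at the mean of its genotype. In the knockouts with a high brain that mean lay above the other brains, so their counting spread was understated, most for Tbx21 and Eomes.

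**Figure D3:**
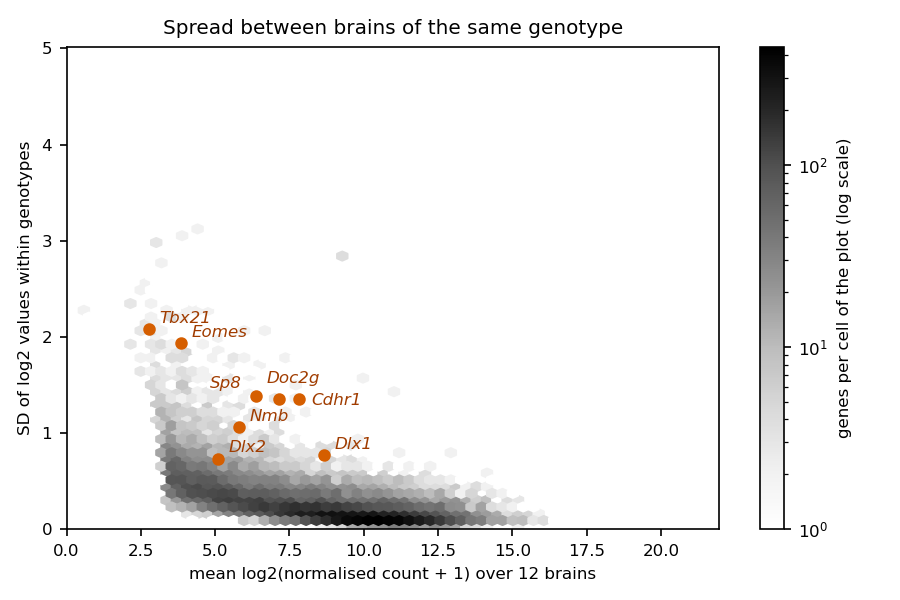
SD of log2 values within genotypes against the mean of log2(normalised count + 1) over 12 brains, for 19228 genes (grey cells, darker for more genes, log scale) and the 8 bulb genes (orange points). The 8 genes lie above most genes of the same level, with SDs of 0.73 to 2.08 against a median of 0.213 for all genes.

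The 28 pairs among the 8 genes had Pearson correlations of log2 values of 0.59 to 0.94 over the 12 brains, with a median of 0.79. Over the 10 brains other than the pair of high ones the correlations ran from -0.69 to 0.87 with a median of 0.29, so the closeness of the genes rested in large part on 2 brains. The brains share depth and normalisation, and these values are a description.

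Genes of the other cells of the bulb were examined for the same brains, from lists named with earlier results of these data known. The olfactory marker protein gene Omp, a defining gene of mature sensory neurons, stood at 49.3 in tRNA-Phe-1-1-/- A and 332 in tRNA-Phe-3-1-/- B, and at 9.02 to 22.7 in the other brains. S100a5, another gene of sensory neurons and named here after its values were seen, was at 37.8 and 146 in the pair and at 0 to 1.08 elsewhere. The other genes of that list went another way: Cnga2 was at 40.1 in tRNA-Phe-1-1-/- A but at 17.5 in tRNA-Phe-3-1-/- B, below WT B at 26.4, and Ano2 was lowest of all in tRNA-Phe-1-1-/- A at 24.1, with 163 in tRNA-Phe-3-1-/- B and up to 435 elsewhere. The pair held the highest values of 2 of the 4 sensory neuron genes, of 2 of 4 genes of olfactory ensheathing glia (Prss56 and Fabp7), of 2 of 6 neuroblast genes (Dcx and Dlx6os1), of 6 of 19 other interneuron genes and of 0 of 11 other mitral and tufted cell genes. Those 11 genes were mixed: Lbhd2 was at 69.9 and 55.9 in the pair (median 24.9) but at 215 in tRNA-Phe-3-1-/- C. Slc17a6 was at 574 and 665 in the pair, below its median of 949. In the 16 lists for other regions and cell types (72 distinct genes, of which Tbr1 and Calb2 also stood in bulb lists) the pair held the highest values of none. Over all genes tested the share was 2.38%, so few such genes would be expected in those 16 lists, and their count is close to it. The parts that bulb tissue, cell number or RNA per cell had in the high values were not tested.

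Th, tyrosine hydroxylase, which marks dopaminergic periglomerular cells in the bulb but also midbrain neurons, was at 639 and 887 in the pair, at 381 in tRNA-Phe-3-1-/- C and at 27.1 to 178 elsewhere. Calb2 (calretinin) was highest in tRNA-Phe-3-1-/- C, at 3586, above the 1999 and 1674 of the pair. The brain tRNA-Phe-3-1-/- C was next in order, below the pair, for Eomes, Dlx1, Dlx2 and Sp8, and it held the highest sums of cerebellar, hypothalamic, meningeal, oligodendrocyte and astrocyte genes. Eomes is expressed in unipolar brush cells of the cerebellum as well, and the summed level of 3 genes of those cells was 11414 there, against a median of 6273, and was highest at 13486 in tRNA-Phe-2-1-/- C, where Eomes stood at 2.22.

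**Figure D4:**
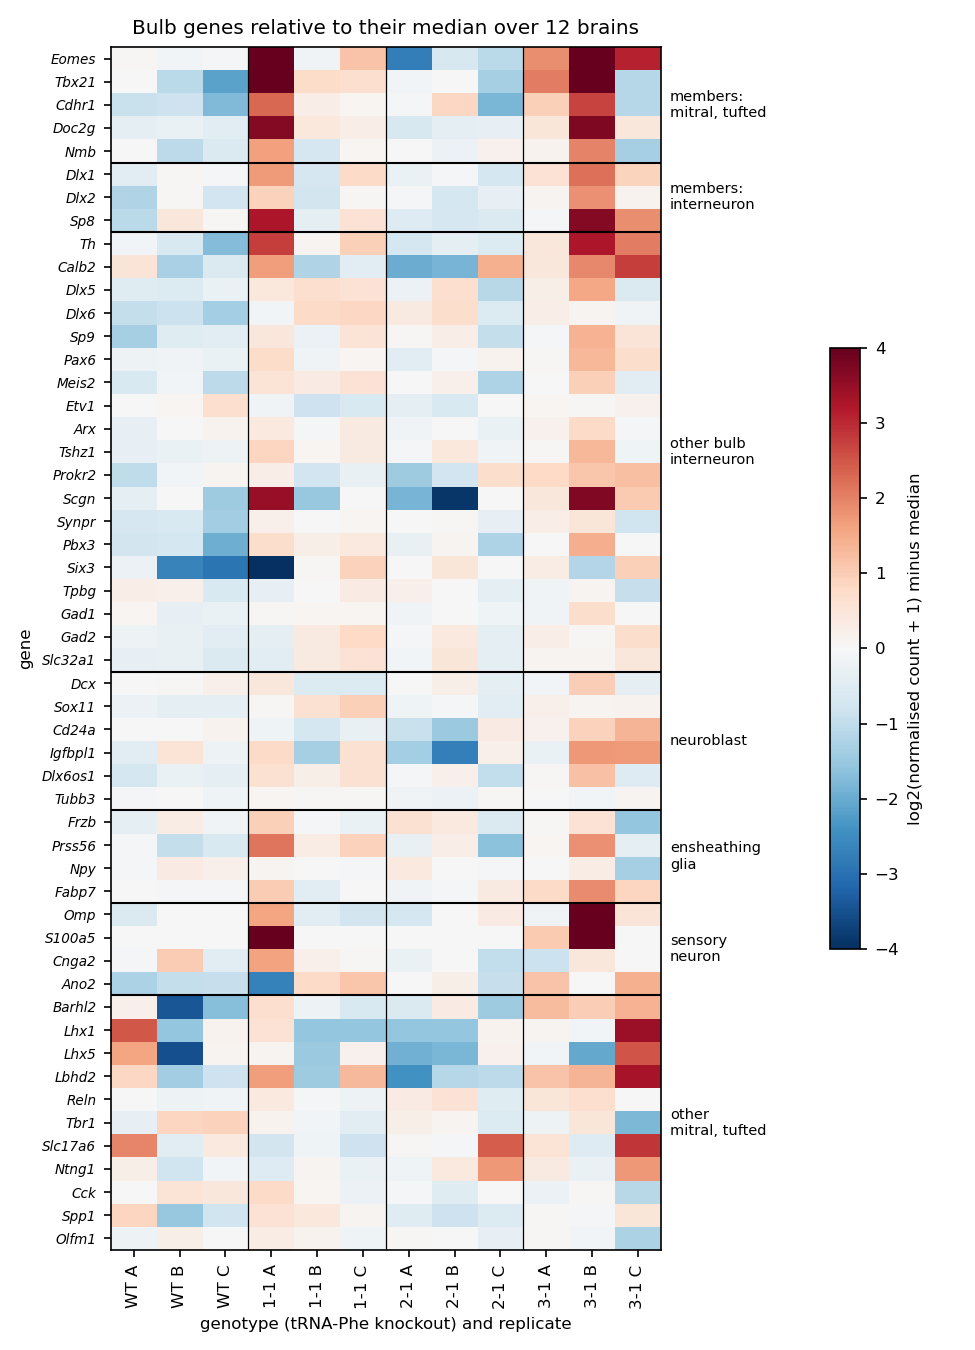
Each row is a gene and each column a brain; the colour is log2(normalised count + 1) minus the gene's median over the 12 brains, cut off at -4 and 4, and lines part the gene lists and the genotypes. The columns 1-1 A and 3-1 B are red through the 8 genes at the top and through Th, Scgn, Prss56, Omp and S100a5. The other mitral and tufted cell genes at the bottom are mixed. Both columns are above the median for Lbhd2 and Barhl2, among others, and below it for Slc17a6 and Ntng1.

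By the test, the bulb lists gave few calls, and their counts at an unadjusted p under 0.05 are to be read against the 15.9%, 5.57% and 12.3% of all genes given above. Of 10 tested other genes of mitral and tufted cells, 0 passed in any comparison with WT by limma (0, 0 and 3 at an unadjusted p under 0.05 in the knockouts of tRNA-Phe-1-1, of tRNA-Phe-2-1 and of tRNA-Phe-3-1), and the most abundant of them, Olfm1 and Reln, are widely expressed in the forebrain. Of 19 other interneuron genes, among which Gad1 (a GABA-synthesising enzyme) and Meis2 (a homeobox factor) were the most abundant, 0 passed (7, 3 and 10 at an unadjusted p under 0.05), and their median log2 fold changes were 0.59, 0.25 and 0.89. Of 6 neuroblast genes, Sox11, a transcription factor of immature neurons, rose in tRNA-Phe-1-1-/- by 0.88 ± 0.18 (limma adjusted p = 0.0499), and it passed in 6 of 24 alternatives; of the fits that left out a single brain, it passed only without tRNA-Phe-1-1-/- A (adjusted p up to 0.173). It was highest in tRNA-Phe-1-1-/- B and C (1526 and 1955) and not in the pair of high brains (1044 and 1090). No ensheathing glia gene and no sensory neuron gene of 4 each passed (1, 0 and 1, and 0, 0 and 1 at an unadjusted p under 0.05). In the other 16 lists, Rorb of the cortex fell by 0.75 ± 0.09 (limma adjusted p = 0.011) and Opalin of oligodendrocytes fell by 2.19 ± 0.37 (limma adjusted p = 0.026) in tRNA-Phe-1-1-/-, and no other gene passed against WT. Rorb lost its call without WT C (limma adjusted p = 0.0504) and Opalin lost it without WT A, WT B, WT C, tRNA-Phe-1-1-/- B or tRNA-Phe-1-1-/- C (limma adjusted p of 0.0614 to 0.0943).

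The genes whose log2 values followed the 5 genes of mitral and tufted cells most closely over the 12 brains, among genes with a mean of at least 50, were Ms4a15 (mean Pearson r of 0.90), Frmd7, Gpsm1, Ndnf, Filip1l, Tshz1, Gng4, Shisa8, Rasa3 and Ube2e3. For the 3 interneuron genes they were Cpa6 (0.94), Sall3, Ablim3, Frmd7, Grip1, Gpsm1, Pax6, Gng4, Ms4a15 and Th. The lists of 10 shared 4 genes, 40% of each. Ms4a15 was at 380 and 457 in the pair, at 26.9 in tRNA-Phe-3-1-/- A and at 0 to 7.01 in the other brains. Cpa6 was at 210 and 437 in the pair and at 10.4 to 45.4 elsewhere. Ms4a15, Frmd7 and Cpa6 had means of 4.45, 19.1 and 24.6 over the 10 other brains and reached the mean of 50 only through the pair. Over the 10 other brains the mean r was 0.18 to 0.60 for the first list, lowest for Filip1l and Shisa8, and 0.43 to 0.76 for the second, so the likeness rested in large part on the pair.

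Since the deleted genes supply phenylalanine to the ribosome, the share of phenylalanine codons was read from the canonical coding sequence of each gene (GENCODE vM39). It was 4.91% of codons in Tbx21, 4.13% in Nmb, 3.84% in Cdhr1, 3.62% in Doc2g, 3.54% in Eomes, 3.29% in Sp8, 2.75% in Dlx1 and 2.41% in Dlx2, with a median of 3.60% over 14877 genes. Of the 8 genes, 4 lay below that median.

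In the liver of the same genotypes, normalised in a table of its own, Dlx2 and Sp8 were at 0 in 12 of 12 samples and Cdhr1 and Dlx1 at 0 in 10 of 12. Eomes was at 0 to 5.29 and Tbx21 at 3.02 to 12.5, so that in the livers Tbx21 was above 0 in every sample. Nmb ran from 3.26 to 25.9 (median 7.80) and Doc2g from 36.6 to 87.5 (median 48.1). How far single livers stood apart from the rest was not examined.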

How the data were processed

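RNA of brain and liver was sequenced by the authors, trimmed with Trim Galore and cutadapt, aligned with STAR to GRCm38.p6, quantified with strand-aware Salmon and scaled with DESeq2 in each tissue. The deposited signal is normalised counts, estimated reads divided by a size factor per sample. Each value was a whole multiple of a step within 0.01 for 100% of values, which gave reads and depth (30365760 to 46225360 in brains). Deposited columns of the authors' comparisons, such as log2 fold changes, were not used. Symbols from GENCODE vM39 matched 93.23% of 55434 identifiers, and exon lengths came from it.

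Log2(normalised count + 1) of 12 brains was fitted with limma 3.58.1 (variance trend; 19228 genes with a mean of at least 10; two-sided p, Benjamini-Hochberg adjusted; threshold 0.05). Genotypes came from the sample titles. Count tests (edgeR 4.0.16, DESeq2 1.42.0, in R 4.3.3) used recovered reads of 11 brains, since the step of tRNA-Phe-1-1-/- C lay too close to 1 for recovered reads and normalised counts to be told apart. Scripts were tested on simulated data. No brains were duplicates.

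The 8 genes and the gene lists were chosen with earlier results of these data known. By the rule for names, all 8 were described, with up to 3 called genes per list (otherwise the 2 most abundant) and the 10 genes most alike; others were named after seeing values. The labels name separate samples, and the methods separate mice.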

Additional observations from a re-analysis of the deposited data

How the results depend on the processing

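The count of 0 bulb genes called was unchanged in all 7 tests with a pseudocount of 0.1 or 5, with every gene above 0 or those with a mean of 50 or more (Tbx21 and Dlx2 then not tested), after quantile normalisation, TMM scaling, no variance trend, the 2 groups alone (not run for the F-test), edgeR, and each brain left out (0 to 0). With the replicate letter as a block it was 0 in each test too. Whether the letters pair the brains was not settled. Of 18 correlations between brains of the same letter, 7 exceeded 0.1 (-0.16 to 0.49), and brains of different letters were not compared. DESeq2 on 11 brains called 1 gene (Tbx21, adjusted p = 0.018) in tRNA-Phe-1-1-/- against WT, 1 (Eomes, adjusted p = 0.045) in tRNA-Phe-3-1-/- against WT, 2 (Eomes and Tbx21) in tRNA-Phe-1-1-/- against tRNA-Phe-2-1-/-, 1 (Eomes) in tRNA-Phe-2-1-/- against tRNA-Phe-3-1-/- and 2 in the test among 4 genotypes, and gave no p for Doc2g; the cause was not tested. In the order just given, DESeq2 called 402, 382, 319, 142 and 1004 of all genes. Over the limma and edgeR alternatives the lowest adjusted p of the 8 genes was 0.062.

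Of 1140 alternative estimates, 24 changed sign, none of them called. With single brains left out, tRNA-Phe-1-1-/- against tRNA-Phe-3-1-/- ranged from -0.95 to 0.97 for Cdhr1, -1.14 to 1.80 for Tbx21, -0.71 to 0.95 for Nmb, -1.18 to 0.0050 for Dlx1, -1.74 to 0.23 for Sp8 and -1.21 to 0.99 for Doc2g. Nmb ranged from -0.067 to 1.60 in tRNA-Phe-3-1-/- against WT, -0.27 to 0.89 in tRNA-Phe-1-1-/- against tRNA-Phe-2-1-/- and -1.09 to 0.57 in tRNA-Phe-2-1-/- against tRNA-Phe-3-1-/-, and in tRNA-Phe-2-1-/- against WT Dlx1 ranged from -0.33 to 0.015 and Dlx2 from -0.0037 to 0.62. Without both high brains, Nmb was at -0.067, -0.27 and 0.57 in the 3 comparisons just named. In tRNA-Phe-1-1-/- against tRNA-Phe-3-1-/-, Eomes was at 0.15 with edgeR and 0.16 with DESeq2, and Doc2g at 0.40 with both. Over all genes, the number called ranged from 5 (without WT C) to 402 against 202 in tRNA-Phe-1-1-/- and WT, and, in the order of the other comparisons with WT, between knockouts (1-1 with 2-1, 1-1 with 3-1, 2-1 with 3-1) and among 4 genotypes, from 0 to 18 against 0, 0 to 382 against 0, 6 to 319 against 102, 5 to 893 against 406, 0 to 142 against 0 and 3 to 1004 against 122, with DESeq2 giving each highest count. Eomes and Tbx21 rested on at most 57 and 16 reads outside the high brains, and 3 brains a group limit what any of these tests could detect.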
